A study of Mus musculus with 20 samples.

Results

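Iron handling was followed through 10 genes in fetal mouse liver, namely Hamp, Hfe2, Tfr2, Slc40a1, Tfrc, Trf, Slc11a2, Fth1, Ftl1 and Hmox1. They were chosen by name, and all 10 were found among the 45802 gene entries of the deposited expression table. All 10 also passed the filter on low values, which asked for a linear value of at least 1 in at least 4 libraries and kept 11807 genes. RNA had been sequenced in bulk from the livers of 20 fetuses of the C57BL/6 background at stage E17.5, taken from dams after a 24 h fast. There were 5 groups, and each held 2 female and 2 male fetuses. Knockout fetuses of Ppara knockout dams (KODam_KOFetus) and heterozygous fetuses of Ppara knockout dams (KODam_HetFetus) stood beside heterozygous fetuses of heterozygous dams (HetDam_HetFetus). PPARA is the nuclear receptor that turns on fatty acid oxidation in the fasted liver. Cpt2f/f fetuses of Cpt2f/f dams that carry Albumin-Cre (Cpt2LKODam_FloxFetus) stood beside Cpt2f/f fetuses of Cpt2f/f dams (FloxDam_FloxFetus). Albumin-Cre acts in hepatocytes, so the dams lack CPT2, an enzyme of mitochondrial fatty acid import, in the liver, and the fetal label names no Cre. The titles of these last groups speak of wild type where the genotype labels say Cpt2f/f. No group came from fed dams, and the HetDam_HetFetus group is itself heterozygous for Ppara in dam and fetus.

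Hepcidin, the product of Hamp, is a peptide hormone made by hepatocytes that binds ferroportin, the only known exporter of iron from cells, and sends it for degradation. Hepatocytes raise Hamp transcription through bone morphogenetic protein (BMP) signalling, with hemojuvelin (Hfe2, also named Hjv) as a coreceptor, and through interleukin 6 and STAT3. Inside cells, iron regulatory proteins bind a hairpin called the iron-responsive element. Binding near the start of the ferritin and ferroportin mRNAs blocks their translation, and binding in the end part of the transferrin receptor mRNA protects it from decay. Transcript levels therefore show only part of the control of these proteins. The fetal liver at this age is both a hepatocyte tissue and the main site of red cell production.

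The regulatory sequences of the axis are shown first because the hormone and its targets carry them in their DNA or mRNA. RefSeq promoter entries of GRCm38.p6, which cover the bases just before and after a transcription start, were held for 5 of the 10 genes (Hamp, Tfrc, Tfr2, Fth1 and Ftl1). Hamp has a near copy, Hamp2. The windows below run from -121 to -77 relative to the Hamp start (chr7:30944106-30944150, minus strand) and from -118 to -74 relative to the Hamp2 start (chr7:30924255-30924299, minus strand), with the BMP response element GGCGCC and the STAT site TTCNNNGAA, or the bases in their place, in capitals.
Hamp: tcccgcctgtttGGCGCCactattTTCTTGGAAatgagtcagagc
Hamp2: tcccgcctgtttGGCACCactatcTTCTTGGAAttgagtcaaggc
Of these 45 bases 40 were identical. Counted from 1 at the 5′ end of the window, with the Hamp base first and the Hamp2 base last, the differences were G16A, T24C, A34T, G42A and A43G. The first of them lies within the BMP response element, so the letters GGCGCC were found in the Hamp promoter and not in that of Hamp2, while TTCNNNGAA was found in both, and the motifs did not overlap. Searched on both strands, GGCGCC occurred in 11.9% and TTCNNNGAA in 8.3% of 32851 promoters of the same length. GGCGCC also occurred once in 1 of the promoter entries of Tfrc. The letters of the antioxidant response element, TGACNNNGC, occurred in 12.4% of all promoters, and those of a direct repeat of the PPAR half-site in 0.0396%. Neither of these last 2 motifs was found in the windows of the 5 genes, which says only that the letters are not in these windows.

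Iron-responsive elements were searched in the protein-coding transcripts of GENCODE M21 (GRCm38) as a C, 5 bases and the loop CAGTGN, with N as A, C or T. A stem of 5 pairs between the C and the loop was required, and G with T counted as a pair. The pattern was found in 426 of 58797 transcripts (0.725%), and in 4 of the 10 genes. In the lines below the bulged C and the loop are in capitals, and the U of the RNA is written as T. Tfrc had 4 sites, of which the first (chr16:32631219-32631248, plus strand) and the third (chr16:32631663-32631692) are printed, all in the 3′ UTR. The sites of Fth1 (chr19:9982732-9982761, plus strand), Ftl1 (chr7:45459778-45459807, minus strand) and Slc40a1 (chr1:45925464-45925493, minus strand) lie in the 5′ UTR.
Tfrc: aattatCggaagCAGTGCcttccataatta
Tfrc: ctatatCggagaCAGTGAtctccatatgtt
Fth1: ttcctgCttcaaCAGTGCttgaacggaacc
Ftl1: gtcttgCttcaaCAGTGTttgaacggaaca
Slc40a1: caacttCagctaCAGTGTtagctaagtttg
The Slc40a1 site was in 1 of 4 annotated protein-coding transcripts and the Fth1 site in 4 of 5. The table holds 1 value per gene, so forms with and without the element were not told apart. No match was found in Slc11a2 with this strict pattern.

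The table kept the 2 hepcidin genes apart. Hamp2 had a value in only 4 of 20 libraries, from -3.48 to -1.94 on the log2 scale, and was blank in the others, so it did not enter a test. The reads are 75 nucleotides long and the counting rule is not given in the sources used here, and how reads shared by the near copies were assigned is not known.

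Values are the deposited log2 expression values, and a difference between groups is a log2 fold change with its standard error. Each gene was tested with limma in a fit over all libraries, and a change is called at a Benjamini-Hochberg adjusted p under 0.05 over all tested genes. The depth of the libraries is unknown. Ppara itself averaged 2.26 ± 0.27 in KODam_KOFetus, 2.56 ± 0.679 in KODam_HetFetus and 3.13 ± 0.281 in HetDam_HetFetus (SD, n = 4 each), so transcript was still measured in knockout fetuses and does not check the genotype labels. Fetal Cpt2 averaged 3.90 ± 0.053 in Cpt2LKODam_FloxFetus and 4.00 ± 0.309 in FloxDam_FloxFetus. All 12 hepatocyte markers had values, and their summed linear level overlapped between the groups of every comparison. A number in the sample descriptions, which no label explains, is shared by replicates 1 and 2 of KODam_HetFetus, by replicates 1 and 2 of KODam_KOFetus and by replicates 3 and 4 of FloxDam_FloxFetus, and these are presumed to be littermates. Marker transcripts of neighbouring organs stood at over 4 times the median of the 20 libraries in 4 of them. These were HetDam_HetFetus replicate 1 (gut epithelium, 4.40 times), HetDam_HetFetus replicate 4 (skeletal muscle, 12.9 times), KODam_KOFetus replicate 2 (skeletal muscle, 18.1 times) and Cpt2LKODam_FloxFetus replicate 2 (exocrine pancreas, 15.4 times). In bulk tissue, fewer cells of a type and less RNA per cell cannot be told apart.

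**Figure D1:**
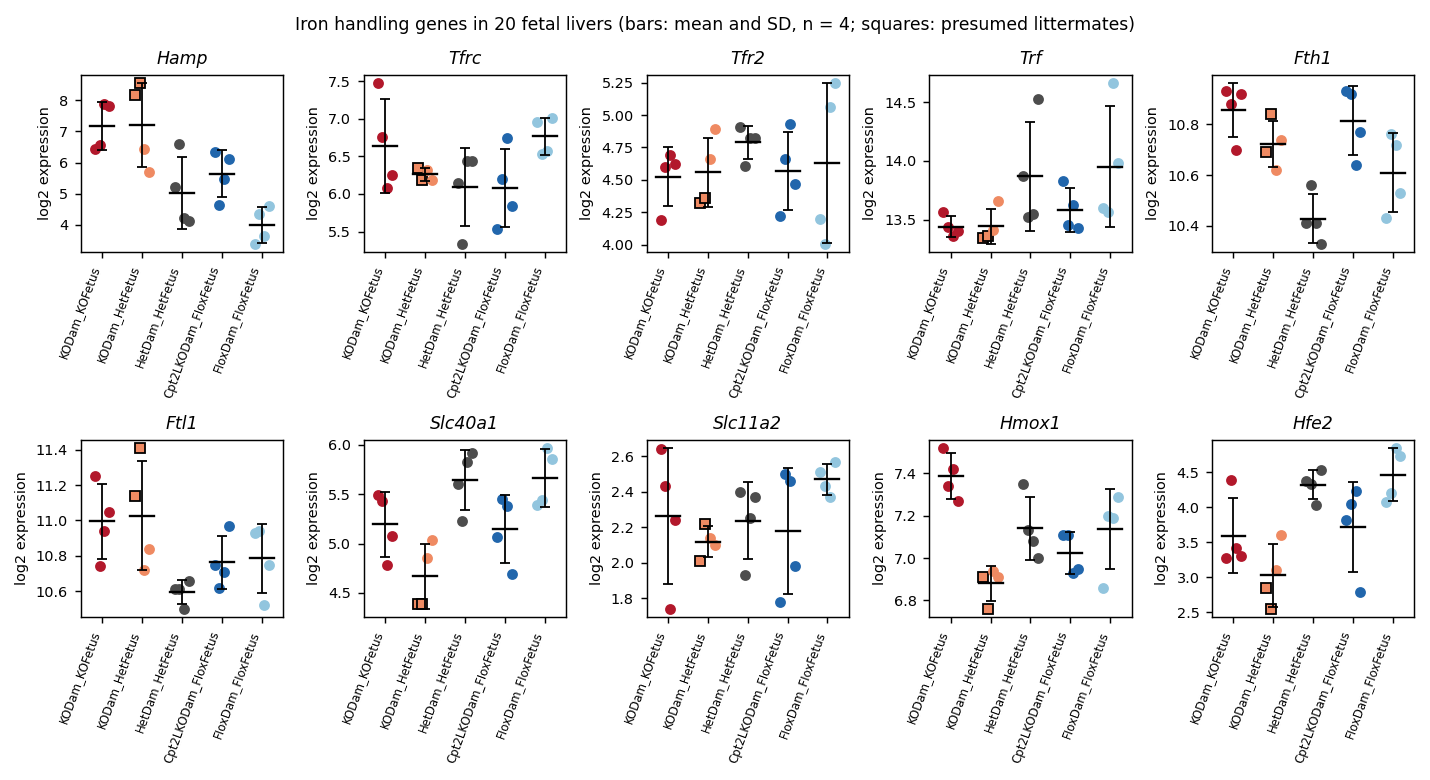
Deposited log2 expression of the 10 iron handling genes (vertical axes, one scale per gene) in the 20 fetal livers, by group. Each point is a library, the long bar is the group mean and the error bar the SD (n = 4), and squares mark the presumed littermates of KODam_HetFetus, which hold the 2 highest Hamp values, 8.16 and 8.55.

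A maternal lack of Ppara was examined with the fetal genotype held heterozygous. In KODam_HetFetus livers, hepcidin transcript was higher than in HetDam_HetFetus livers. Transcripts of the BMP coreceptor hemojuvelin (Hfe2) and of ferroportin (Slc40a1) were lower, and those of both ferritin genes were slightly higher. In counts, 3 of the 10 genes rose and 2 fell, where 26.4% of all tested genes rose and 12.6% fell (39.0% in either direction). The median log2 fold change of the 10 genes was -0.17, against 0.14 over all tested genes. The groups did not overlap for 5 of the 10 genes, which was so for 36.3% of all genes. With so large a background, the share of iron genes called is close to that of the transcriptome, and the account below rests on the single genes.

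Hamp stood at 8.16, 8.55, 6.45 and 5.71 in the 4 KODam_HetFetus livers, against 5.22, 6.60, 4.20 and 4.11 in the 4 HetDam_HetFetus livers. The presumed littermates held the highest values of all 20 libraries, and the other fetuses of the group overlapped through a single HetDam_HetFetus liver, at 6.60. The log2 fold change was 2.18 ± 0.61 (95% interval 0.91 to 3.46, limma adjusted p = 0.0092), a ratio of 4.55. Without the littermate pair it was 1.05 ± 0.63 (adjusted p = 0.23), and without the libraries that carried markers of other organs it was 1.82 ± 0.74 (adjusted p = 0.081), neither of which was called.

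Hfe2 encodes hemojuvelin, which hepatocytes and skeletal muscle make. It stood at 2.85, 2.55, 3.11 and 3.60 in KODam_HetFetus, against 4.38, 4.33, 4.04 and 4.54 in HetDam_HetFetus. Every KODam_HetFetus value lay below every HetDam_HetFetus value. The highest HetDam_HetFetus value, 4.54, was that of replicate 4, the library with muscle transcripts at 12.9 times the median. The part of muscle RNA in it was not tested. The log2 fold change was -1.30 ± 0.30 (limma adjusted p = 0.0028), a ratio of 0.407. It was -0.97 ± 0.36 without the littermate pair (adjusted p = 0.058) and remained called in 23 of 24 alternative fits.

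Slc40a1 encodes ferroportin, found in macrophages that recycle iron from old red cells and in hepatocytes. It stood at 4.39, 4.39, 4.85 and 5.04 in KODam_HetFetus, against 5.60, 5.23, 5.83 and 5.92 in HetDam_HetFetus, again without overlap. The log2 fold change was -0.98 ± 0.21 (limma adjusted p = 0.0018), a ratio of 0.507. This call held in all 24 alternative fits, with values from -1.12 to -0.70. Of 12 macrophage markers 1 rose and 4 fell in the same comparison, where 26.4% of all genes rose and 12.6% fell. The summed linear level of these markers ran from 509 to 606 in KODam_HetFetus and from 533 to 645 in HetDam_HetFetus, with no marker blank in all libraries. Whether macrophage content has a part in the lower Slc40a1 was not tested.

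Within KODam_HetFetus the 3 genes sorted the fetuses in nearly the same way. Replicates 1 and 2 had the highest Hamp, the lowest Slc40a1 and the lowest Hfe2, and replicate 4 had the lowest Hamp and the highest Slc40a1 and Hfe2 of the group. The other groups did not all share this order. In HetDam_HetFetus, replicate 2 had the highest Hamp (6.60) and the lowest Slc40a1 (5.23), but replicate 3 had the lowest Hfe2 (4.04). In FloxDam_FloxFetus, replicate 1 had the lowest Hamp (3.39) together with the lowest Slc40a1 (5.39) and Hfe2 (4.08). Replicates 1 and 4 of Cpt2LKODam_FloxFetus had the highest Hamp (6.33 and 6.10), the lowest Slc40a1 (5.07 and 4.69) and the lowest Hfe2 (3.82 and 2.79). Replicates 3 and 4 of KODam_KOFetus had the highest Hamp (7.88 and 7.81) and the lowest Slc40a1 (4.78 and 5.08). The lowest Hfe2 of KODam_KOFetus was that of replicate 1 (3.27). These are orders among 4 livers, and replicates 1 and 2 of KODam_HetFetus presumably share a dam.

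The ferritin chains store iron, with Fth1 encoding the heavy chain that oxidises it and Ftl1 the light chain. Fth1 stood at 10.69, 10.84, 10.62 and 10.74 in KODam_HetFetus, against 10.41, 10.56, 10.41 and 10.33 in HetDam_HetFetus. The values did not overlap, and the log2 fold change was 0.29 ± 0.10 (limma adjusted p = 0.025). Ftl1 stood at 11.14, 11.41, 10.72 and 10.84 in KODam_HetFetus, against 10.61, 10.61, 10.50 and 10.66 in HetDam_HetFetus, with a log2 fold change of 0.44 ± 0.14 (adjusted p = 0.021). The presumed littermates again held the 2 highest Ftl1 values of the group. Without them Ftl1 was at 0.19 (adjusted p = 0.36) and Fth1 at 0.25 (adjusted p = 0.14), and with litter as a random block Ftl1 was at 0.38 (adjusted p = 0.088) and Fth1 at 0.28 (adjusted p = 0.056), so both calls were lost in each fit. Trimmed-mean scaling, which moved the median of all genes from 0.14 to 0.02, brought Fth1 to 0.17 (adjusted p = 0.31) and Ftl1 to 0.31 (adjusted p = 0.17). With that scaling 1 of the 10 genes was called higher and 4 lower, in place of 3 and 2, since Trf (-0.55, adjusted p = 0.046) and Hmox1 (-0.39, adjusted p = 0.013) then passed.

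The other 5 genes did not pass the test. Hmox1 encodes heme oxygenase 1, which breaks down heme and frees its iron. It stood at 6.91, 6.76, 6.94 and 6.91 in KODam_HetFetus, against 7.35, 7.13, 7.08 and 7.0 in HetDam_HetFetus, a log2 fold change of -0.26 ± 0.10 (limma adjusted p = 0.052). The groups did not overlap although the test was missed. Trf, which encodes transferrin, the iron carrier of plasma, differed by -0.43 ± 0.22 (adjusted p = 0.13). HetDam_HetFetus replicate 4 had the highest Trf of its group at 14.53. That library carried muscle transcripts, and its summed hepatocyte markers were the highest of the 20 libraries, at 1.57 times the median. KODam_KOFetus replicate 2, which also carried muscle transcripts, had a Trf of 13.44. The part of cell content in these values was not tested. Tfrc, the transferrin receptor through which erythroid cells take up iron, differed by 0.17 (95% interval -0.43 to 0.77). Tfr2, an iron sensor of hepatocytes and erythroid cells, differed by -0.23 (-0.71 to 0.24), and Slc11a2, the divalent metal transporter DMT1, by -0.11 (-0.49 to 0.26).

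**Figure D2:**
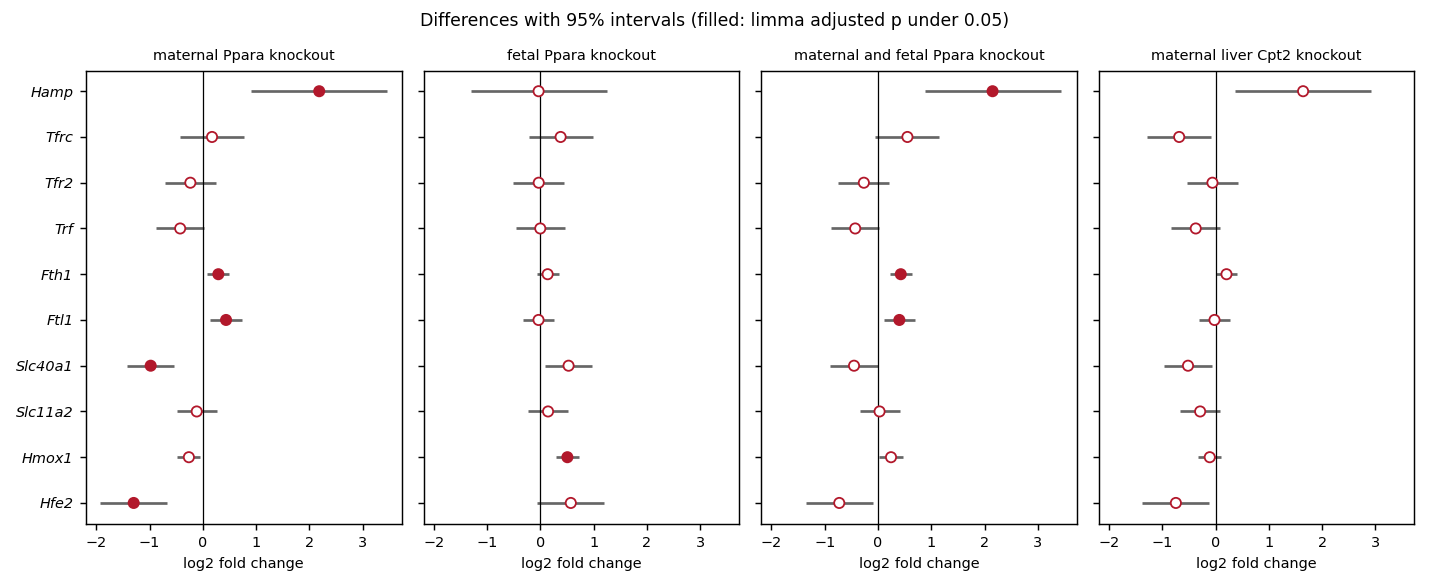
Log2 fold changes (horizontal axes) of the 10 genes in 4 comparisons, with 95% intervals from the limma fit. Filled circles have an adjusted p under 0.05, and Hamp is at 2.18 and 1.64 in the comparisons of dams, at 2.15 where dam and fetus both differ, and at -0.03 in the comparison of fetal genotypes.

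Blood cell markers were read in the same comparison. The summed linear level of 12 erythroid markers ran from 1471 to 1916 in KODam_HetFetus, against 820 to 1282 in HetDam_HetFetus, with 3 of 12 markers higher and 0 lower, where 26.4% of all genes were higher. The mean of their log2 values overlapped between these groups. The summed linear level of 12 neutrophil and myeloid progenitor markers ran from 3361 to 5587 in KODam_HetFetus, against 5772 to 8751 in HetDam_HetFetus. Of these markers 0 were higher and 9 lower, where 12.6% of all genes were lower. No marker of either list was blank in all libraries. Erythroid cells express Tfrc and ferritin, and the part of cell content in the values of the iron genes was not tested.

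The role of fetal genotype was examined with the dam held as a knockout, in groups that have no presumed litter in common. Only Hmox1 was called among the 10 genes, and the mean levels of Hamp lay close together, with a wide interval. Of all tested genes 0.822% were called in either direction and 0.0254% as higher. Hmox1 stood at 7.52, 7.34, 7.42 and 7.27 in KODam_KOFetus, against 6.91, 6.76, 6.94 and 6.91 in KODam_HetFetus. The groups did not overlap, as was so for 5.67% of all genes. The log2 fold change was 0.51 ± 0.10 (limma adjusted p = 0.016), a ratio of 1.42. It was 0.46 without KODam_HetFetus replicates 1 and 2 (adjusted p = 0.16), 0.49 with litter as a random block (adjusted p = 0.090), 0.47 without KODam_HetFetus replicate 2 (adjusted p = 0.069) and 0.46 without KODam_KOFetus replicate 1 (adjusted p = 0.077). Without the libraries with markers of other organs it was 0.52 (adjusted p = 0.053). The direction was the same in every one of 24 alternative fits, and 19 of them kept the call. KODam_HetFetus had the lowest mean Hmox1 of the 5 groups (6.88). Against HetDam_HetFetus, Hmox1 in KODam_KOFetus differed by 0.24 ± 0.10 (limma adjusted p = 0.089), without a call and with overlap.

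Hamp stood at 6.45, 6.58, 7.88 and 7.81 in KODam_KOFetus, against 8.16, 8.55, 6.45 and 5.71 in KODam_HetFetus. Each group held a pair of high and a pair of lower livers, and the log2 fold change was -0.03 with a 95% interval of -1.31 to 1.24. The interval is wide on both sides of 0. Without the presumed littermates of KODam_HetFetus the difference was 1.11, which was not called, and it was -0.54 without KODam_HetFetus replicate 4. Slc40a1 averaged 5.20 ± 0.33 in KODam_KOFetus and 4.67 ± 0.33 in KODam_HetFetus (0.53 ± 0.21, limma adjusted p = 0.39). Hfe2 averaged 3.60 ± 0.53 in KODam_KOFetus and 3.03 ± 0.44 in KODam_HetFetus (0.57 ± 0.30, adjusted p = 0.49). In both genes the mean of the knockout fetuses lay between the other groups of this arm.

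Knockout fetuses of knockout dams were also set against heterozygous fetuses of heterozygous dams, which joins the change of dam and fetus and shares groups with both comparisons above. Hamp, Fth1 and Ftl1 rose and none of the 10 genes fell, where 17.4% of all genes rose (24.7% in either direction). The median of the 10 genes was 0.14, the same as that of all genes to 2 decimals. Hamp stood at 6.45, 6.58, 7.88 and 7.81 in KODam_KOFetus, against 5.22, 6.60, 4.20 and 4.11 in HetDam_HetFetus, with overlap through 1 HetDam_HetFetus liver. Its log2 fold change was 2.15 ± 0.61 (limma adjusted p = 0.016), and it fell to between 1.84 and 1.94 with adjusted p-values of 0.051 to 0.055 without replicate 3 or 4 of either group.

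Fth1 stood at 10.93, 10.88, 10.70 and 10.92 in KODam_KOFetus, against 10.41, 10.56, 10.41 and 10.33 in HetDam_HetFetus, a log2 fold change of 0.43 ± 0.10 (limma adjusted p = 0.0052). Ftl1 stood at 11.25, 10.74, 10.94 and 11.05 in KODam_KOFetus, against 10.61, 10.61, 10.50 and 10.66 in HetDam_HetFetus (0.40 ± 0.14, adjusted p = 0.046). Neither overlapped between the groups, as was so for 26.4% of all genes. The Ftl1 call held in 8 of 23 alternative fits and that of Fth1 in 21. Slc40a1 differed by -0.45 ± 0.21 (adjusted p = 0.12) and Hfe2 by -0.73 ± 0.30 (adjusted p = 0.081). With trimmed-mean scaling 1 gene was called higher (Hamp) and 2 lower, since Slc40a1 (-0.57, adjusted p = 0.037) and Hfe2 (-0.84, adjusted p = 0.038) passed and Fth1 (0.31, adjusted p = 0.079) and Ftl1 (0.28, adjusted p = 0.25) did not. Hfe2 was 4.39 in KODam_KOFetus replicate 2, the library with muscle transcripts, and 3.27 to 3.42 in the other livers of that group. Without that library its log2 fold change was -0.99 (adjusted p = 0.019). The part of muscle RNA in this value was not tested. Erythroid markers were higher for 5 of 12 and lower for 0 in this comparison, where 17.4% of all genes were higher. Their summed levels were 1480 to 2141 in KODam_KOFetus and 820 to 1282 in HetDam_HetFetus.

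**Figure D3:**
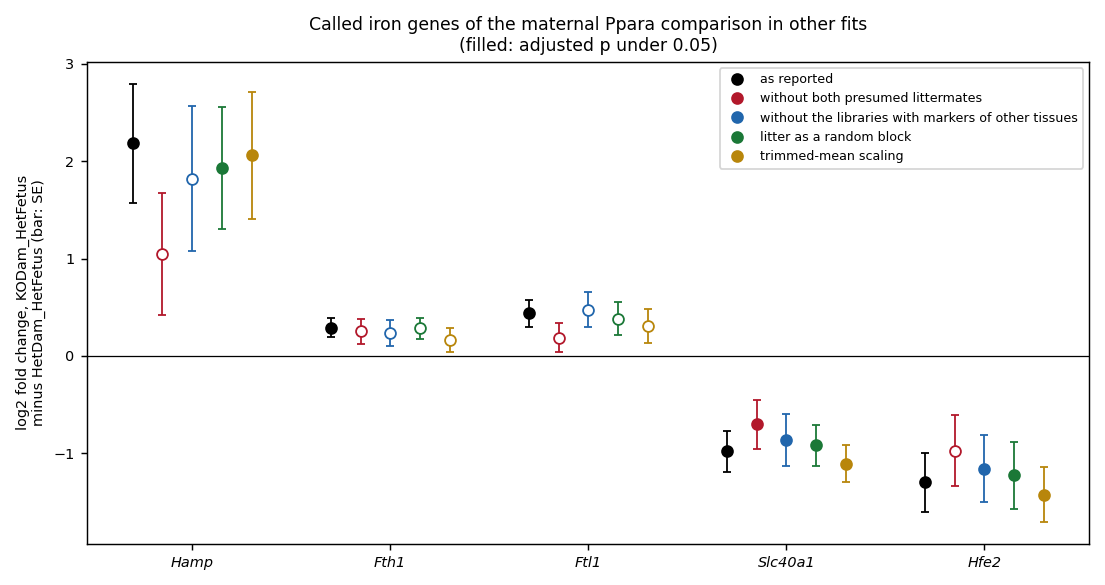
Log2 fold changes (vertical axis, bars show the SE) of the 5 iron genes called in KODam_HetFetus against HetDam_HetFetus, as reported and in 4 other fits. Filled circles have an adjusted p under 0.05, and Slc40a1 is filled in each while Hamp is at 1.05 and open without the presumed littermates.

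The loss of Cpt2 from the liver of the dam tests another defect of maternal fatty acid oxidation. None of the 10 genes was called, nor was any of 11805 tested genes (0%). At an unadjusted p under 0.05 there were 1311 genes, among them Hamp, Tfrc, Slc40a1 and Hfe2. Hamp stood at 6.33, 4.64, 5.48 and 6.10 in Cpt2LKODam_FloxFetus, against 3.39, 4.34, 3.64 and 4.60 in FloxDam_FloxFetus. The lowest value of the first group lay just above the highest of the second, and such separation was seen in 6.04% of all genes. The log2 fold change was 1.64 ± 0.61 (95% interval 0.37 to 2.92, limma adjusted p = 0.38). Alternative fits gave 1.41 to 1.98, with no call. Slc40a1 averaged 5.15 ± 0.35 in Cpt2LKODam_FloxFetus and 5.67 ± 0.29 in FloxDam_FloxFetus, a difference of -0.52 ± 0.21 (adjusted p = 0.39). Hfe2 averaged 3.72 ± 0.64 in Cpt2LKODam_FloxFetus and 4.47 ± 0.38 in FloxDam_FloxFetus, a difference of -0.75 ± 0.30 (adjusted p = 0.39). Replicate 4 of Cpt2LKODam_FloxFetus had the lowest Slc40a1 (4.69) and Hfe2 (2.79) of its group. Tfrc differed by -0.68 ± 0.29 (adjusted p = 0.39), and Fth1 by 0.20 ± 0.10 (adjusted p = 0.45).

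The maternal effects of the 2 arms were compared directly, since a call in one and none in the other does not show a difference. None of the 10 genes differed, and 0% of 11798 genes were called, with 2343 at an unadjusted p under 0.05. For Hamp the Ppara effect minus the Cpt2 effect was 0.54 ± 0.86 (95% interval -1.26 to 2.35, limma adjusted p = 0.75). For Slc40a1 it was -0.46 ± 0.30 (adjusted p = 0.39) and for Hfe2 -0.55 ± 0.42 (adjusted p = 0.47). Tfrc (0.86 ± 0.41, adjusted p = 0.25) and Ftl1 (0.46 ± 0.20, adjusted p = 0.22) were the 2 genes at an unadjusted p under 0.05. The interval for Hamp includes differences as large as either effect.

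The 2 groups of fetuses from dams without a knockout differ in their Ppara and Cpt2 alleles. Between HetDam_HetFetus and FloxDam_FloxFetus none of the 10 genes was called, where 0.136% of all genes were. Hamp averaged 5.03 ± 1.16 in HetDam_HetFetus and 3.99 ± 0.57 in FloxDam_FloxFetus, a difference of 1.04 ± 0.61 (limma adjusted p = 0.40). Tfrc stood at 6.15, 5.34, 6.44 and 6.44 in HetDam_HetFetus, against 6.95, 6.53, 6.57 and 7.01 in FloxDam_FloxFetus. It was the 1 gene of the 10 without overlap, against 10.1% of all genes, and differed by -0.67 ± 0.29 (adjusted p = 0.25). By fetal sex, males and females differed by 0.08 ± 0.40 for Hamp (adjusted p = 0.98), and none of the 10 genes was called, against 0.0508% of all genes.

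Set in order, mean Hamp was 7.22 ± 1.36 in KODam_HetFetus, 7.18 ± 0.77 in KODam_KOFetus, 5.64 ± 0.76 in Cpt2LKODam_FloxFetus, 5.03 ± 1.16 in HetDam_HetFetus and 3.99 ± 0.57 in FloxDam_FloxFetus (log2 level, SD, n = 4 each). Neighbours in this order overlapped, except KODam_KOFetus and Cpt2LKODam_FloxFetus. Mean Slc40a1 and mean Hfe2 were both highest in FloxDam_FloxFetus and lowest in KODam_HetFetus, with overlap between all neighbours. Mean Fth1 was highest in KODam_KOFetus (10.86) and lowest in HetDam_HetFetus (10.43), with overlap between all neighbours. For Tfr2, Trf and Slc11a2 the whole spread of group means was 0.27, 0.51 and 0.35 on the log2 scale, and all neighbours overlapped.

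The genes that regulate hepcidin were described from a list of 23, of which 21 were tested. With the maternal Ppara knockout 6 rose and 1 fell, with a median of 0.18 against 0.14 for all genes. Of all tested genes 26.4% rose and 12.6% fell, so the number called is near that of the transcriptome. Jak2, the kinase that carries interleukin 6 signals to STAT3, averaged 3.38 in KODam_HetFetus and 1.94 in HetDam_HetFetus (1.44 ± 0.22, limma adjusted p = 2.1e-04). Bmp2, a ligand made by liver endothelium that drives Hamp, averaged 2.06 in KODam_HetFetus and 0.78 in HetDam_HetFetus (1.28 ± 0.26, adjusted p = 0.0011). The BMP receptor Acvr2a averaged 1.22 in KODam_HetFetus and 0.20 in HetDam_HetFetus, the latter near the filter on low values (1.02 ± 0.24, adjusted p = 0.0029). The BMP receptor Bmpr1a averaged 1.67 in KODam_HetFetus and 1.07 in HetDam_HetFetus (0.60 ± 0.16, adjusted p = 0.0069). All 4 remained called without the littermate pair and without the libraries with markers of other organs. The 1 fall was that of Tmprss6 (-0.61 ± 0.21, adjusted p = 0.029), the protease that cleaves hemojuvelin and lowers Hamp, and it was -0.38 without the littermate pair (adjusted p = 0.28). Tmprss6 was at -0.45 without the libraries with markers of other organs (adjusted p = 0.24). With litter as a random block it was at -0.56 (adjusted p = 0.067), so the call was lost in each. The BMP target genes Id1 (-0.005), Smad6 (-0.28) and Smad7 (0.47, adjusted p = 0.073) had no call. Il6ra (-0.22), Il6st (0.22), Stat3 (-0.007) and Socs3 (-0.04), listed with Jak2 for the interleukin 6 signal, had no call either.

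With maternal and fetal knockout together, 3 genes of this list rose and 1 fell, at a median of 0.07. Of all tested genes 17.4% rose, and 863 of 11801 fell. Jak2 (0.97 ± 0.22, limma adjusted p = 0.0047), Bmp2 (0.90 ± 0.26, adjusted p = 0.016) and Acvr2a (0.71 ± 0.24, adjusted p = 0.035) rose, and Tmprss6 fell by 0.87 (adjusted p = 0.0070). Of 8 sinusoidal endothelium markers, the cell type that makes Bmp2, 2 rose and 3 fell with the maternal knockout. In that comparison 26.4% of all genes rose and 12.6% fell. The summed linear level of the endothelium markers ran from 85.5 to 95.9 in KODam_HetFetus, against 93.1 to 109 in HetDam_HetFetus. The mean of their log2 values ran from 3.02 to 3.21 in KODam_HetFetus and from 3.35 to 3.61 in HetDam_HetFetus, without overlap, and the part of endothelial content in the values of Bmp2 was not tested. No gene of any of the 4 iron lists was called with the fetal knockout, with the maternal Cpt2 knockout, in the difference of the maternal effects, between the control groups or by sex.

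Of 17 tested genes of cellular iron transport and storage, 6 rose and 3 fell with the maternal Ppara knockout (median 0.15, against 0.14 for all genes, of which 26.4% rose and 12.6% fell). Slc25a28, mitoferrin 2, a carrier of iron into mitochondria, averaged 3.93 in KODam_HetFetus and 2.92 in HetDam_HetFetus (1.01 ± 0.18, limma adjusted p = 4.8e-04). Slc39a14, which takes non-transferrin iron into hepatocytes, fell by 1.11 (adjusted p = 0.011), and Steap3, the endosomal ferrireductase of erythroid cells, fell by 0.98 (adjusted p = 0.0069). The split was 2 higher and 5 lower after trimmed-mean scaling, so the balance of directions depends on the scaling. With both knockouts 5 rose and 0 fell, where 17.4% of all genes rose and 863 of 11801 fell. Among the 5 were Pcbp2, an iron chaperone (0.39 ± 0.10, adjusted p = 0.011), Slc25a37, mitoferrin 1 of erythroid cells (0.61 ± 0.18, adjusted p = 0.021), and Iscu, the scaffold of iron-sulfur clusters (0.34 ± 0.11, adjusted p = 0.032). After trimmed-mean scaling 1 rose and 2 fell, and without the libraries with markers of other organs 1 rose and 0 fell.

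Of 13 tested heme handling genes, 3 rose and 3 fell with the maternal knockout (median 0.03), where 26.4% of all genes rose and 12.6% fell. Nfe2l2, the transcription factor NRF2 that induces Hmox1, ferritin and ferroportin, averaged 2.83 in KODam_HetFetus and 4.16 in HetDam_HetFetus (-1.33 ± 0.23, limma adjusted p = 3.9e-04). Slc46a1, a folate and heme carrier, fell by 1.28 (adjusted p = 0.0032). The heme carrier Slc48a1 (0.61 ± 0.13, adjusted p = 0.0015) and the mitochondrial porphyrin transporter Abcb6 (0.54 ± 0.13, adjusted p = 0.0033) rose. With both knockouts 3 rose and 3 fell, where 17.4% of all genes rose and 863 of 11801 fell. The split was 1 higher and 4 lower after trimmed-mean scaling, and 1 and 1 without the libraries with markers of other organs. The smallest adjusted p-values were those of Slc46a1 (-1.80 ± 0.30, adjusted p = 7.8e-04), Lrp1, the receptor for hemopexin-bound heme (-1.39 ± 0.31, adjusted p = 0.0043), Slc48a1 (0.55 ± 0.13, adjusted p = 0.0059) and Abcg2, an exporter of porphyrins (0.53 ± 0.15, adjusted p = 0.014). Of the 4 other transcripts listed as bearing an iron-responsive element, Cdc42bpa, a kinase gene, rose with the maternal knockout (1.17 ± 0.26, adjusted p = 0.0024) and with both (0.95 ± 0.26, adjusted p = 0.015).

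**Figure D4:**
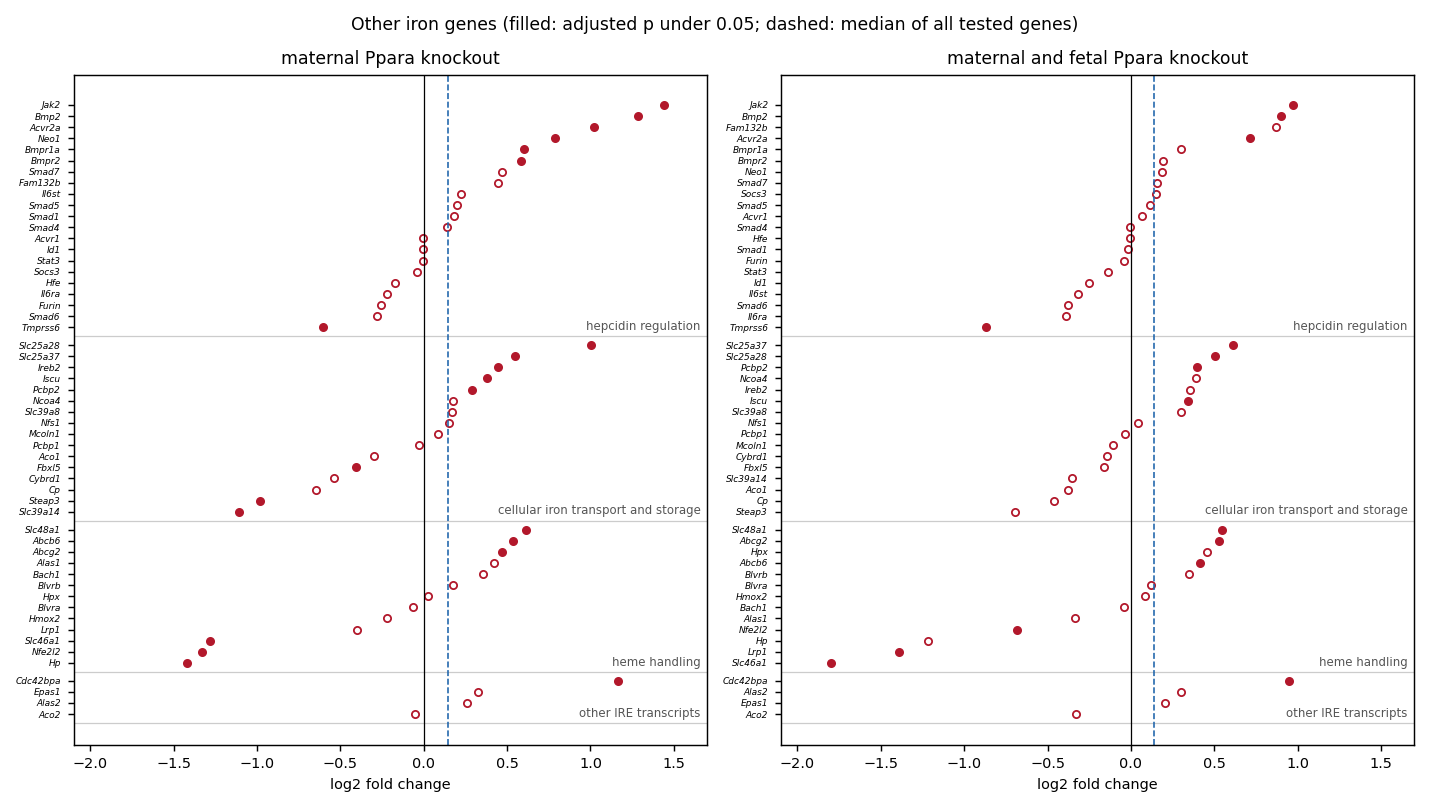
Log2 fold changes (horizontal axes) of genes of 4 iron gene lists, for KODam_HetFetus against HetDam_HetFetus (left) and KODam_KOFetus against HetDam_HetFetus (right). Filled circles have an adjusted p under 0.05, the dashed line is the median of all tested genes (0.14 in both), and Jak2 and Bmp2 lie furthest right in the hepcidin regulation list on both sides.

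The genes whose pattern over the 20 livers lay nearest to each called iron gene were found by the root mean square difference of centred log2 values among 11633 genes with a value in every library. For Hamp they were Tnfrsf12a (0.75), Mpp3 (0.89) and Sgk1 (0.94), where Hamp itself had an SD of 1.54. For Slc40a1 they were Fbxo18 (0.14), Casd1 (0.16) and Gopc (0.18), with an SD of 0.47. For Hfe2 they included Sdc2 (0.22) and Ncf1 (0.24), with an SD of 0.68. For Hmox1 they were Scamp4, Puf60 and Gstp1 (0.14 to 0.16), for Fth1 Psmb2, Mrpl3 and Pes1 (0.10 to 0.12), and for Ftl1 Snx3, Prkag1 and Prkab1 (0.11 to 0.12). Distances are small for genes that vary little, so they are not comparable between the iron genes.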

How the data were processed

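Bulk RNA sequencing had been done on 20 fetal livers. Per the labels' protocols, Trizol extraction was followed by a column, and stranded poly(A) libraries were read as single 75-nucleotide reads. The tools named are Partek 7.0 and bcl2fastq 2.17.1.14, with the build GRCm38.p6, per the submitters' processing notes. The authors deposited log2 values for 45802 gene entries, quantile normalized before deposit, since every library has the same quantiles. The aligner, the counting rule and the quantity that was logged are not stated there. Reads cannot be recovered from the values, so depth and the precision it gives are unknown, and no count test was run. Blank cells were read as no value. Nothing in the labels says whether fetuses of a group had separate dams beyond the presumed litters, and p-values measure the spread between these livers.

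From these values, limma 3.58.1 in R 4.3.3 was fitted to 11807 genes with a linear value of at least 1 in at least 4 libraries, with a mean per group over all 20 libraries and a trend of variance on mean level. Degrees of freedom were 15 residual and 4.09 prior. Two-sided tests had their p-values adjusted with Benjamini-Hochberg over the genes of each of 7 comparisons. The step was tested on simulated data. The members and lists were chosen with earlier results of these data known. Named genes were the 10 iron genes, up to 4 called genes with the smallest adjusted p per list and comparison, and the 3 nearest patterns per called iron gene. Genes named without a call (Id1, Smad6, Smad7, Il6ra, Il6st, Stat3 and Socs3) were chosen after their values were seen. Flvcr1 and Flvcr2, of the heme list, are not used here, and some genes named by the rule are not reported here, although list counts include them. Lists of markers for hepatocytes, erythroid cells, macrophages, neutrophils, endothelium, skeletal muscle, exocrine pancreas, gut and adrenal cortex were set beside the results.

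Replicate numbers are shared between groups in the titles. Deviations of same-numbered livers from their group means correlated at -0.23 to -0.08 for the maternal Ppara knockout and -0.38 to 0.17 for the fetal one, so the numbers do not pair those samples. Between the control groups all 4 correlations lay between 0.13 and 0.32. Alternatives were other scalings, pseudocounts, filters, variance estimates, a replicate block, litter as a random block, sex as a covariate, and left-out libraries.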

Additional observations from a re-analysis of the deposited data

Results flagged for a closer look

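Hmox1 in KODam_HetFetus replicate 2 was the lowest of its group, at a log2 value of 6.76, with the other 3 livers at 6.91 to 6.94. Hfe2 in KODam_KOFetus replicate 2 was the highest of its group, at 4.39, with the other 3 at 3.27 to 3.42, and this library also carried skeletal muscle transcripts at 18.1 times the median of the 20 livers. Each stood further from its nearest neighbour, relative to the range of its group, than Dixon's critical value for 4 samples. Of 50 gene and group combinations examined these were the 2, where chance alone gives about 1 in 20.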

How the results depend on the processing

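With the maternal Ppara knockout 5 of the 10 iron genes were called. The number was 3 with litter as a random block (consensus correlation 0.57), 1 without both presumed littermates and 2 without the libraries with markers of other tissues, an alternative chosen after seeing the data. It ran from 3 to 5 with 1 library left out, the lowest without HetDam_HetFetus replicate 3 or KODam_HetFetus replicate 2. For the fetal knockout, 1 was called as reported, and 0 with litter as a random block, without both presumed littermates and without the libraries with markers of other tissues, and leaving out 1 library gave 0 to 1. With both knockouts 3 were called, against 0 without the libraries with markers of other tissues and 1 to 4 with 1 library left out. Fewer livers enter all but the litter fit, and the estimates themselves also moved. Without the presumed littermates the maternal log2 fold change was 1.05 in place of 2.18 for Hamp, 0.19 in place of 0.44 for Ftl1 and 0.25 in place of 0.29 for Fth1. The cause of these changes was not tested. The replicate block gave 5, 1 and 3 calls in these comparisons and 0 in the others, so it changed no count. No iron gene with a call changed direction in any alternative. In the other 4 comparisons every alternative gave 0 calls. Scaling moved the median of all genes in the maternal comparison from 0.14 to 0.02 (trimmed mean) or 0.05 (quantile normalization of the tested genes), with 2214 or 2452 genes higher and 2228 or 2003 lower in place of 3117 and 1483. Depth, and so the precision of low values, is unknown.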

Other observations

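Marker transcripts of the adrenal cortex, an organ that lies near the liver in the fetus, were read in the same livers. Their summed linear level ran from 5.84 to 37.0 in KODam_HetFetus, against 68.7 to 103 in HetDam_HetFetus. Of the 6 markers 1 was tested, Hsd3b1, and it fell. The mean of the log2 values of the 6 markers ran from -1.56 to -0.83 in KODam_HetFetus, against -1.78 to -1.18 in HetDam_HetFetus. These ranges overlapped, and the lower level seen in the sum was not seen in the mean.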
